A study of Homo sapiens with 18 samples.

Results

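The 9 genes TMEM33, RAB3A, DCUN1D5, UBAC1, ARSJ, ZNF691, BEND3, WWP1 and TBX3 were selected on a single readout: a MAX peak at an outer gene end with a high fold enrichment in the WT peak list and a low one in both the 3A and the 7A list. They are 9 of 19974 protein-coding genes on chromosomes 1 to 22 and X, of which 11794 had a MAX peak at a gene end in all 3 lists. Because the fold enrichment in these lists chose the genes, the height differences are given as a description, with no test. The choice used summit position only to place a peak at a gene end, and it did not use sequence. Summit distance between lists may still depend on the height difference, so the choice can favour genes whose leading summits differ. Width was not used directly, but it is not independent of height, so the choice can favour wide WT peaks. The study mapped MAX by chromatin immunoprecipitation and sequencing with mouse chromatin added as a reference (ChIP-Rx) in U2OS, a human osteosarcoma cell line. In every group the cells' own MYC was knocked out, and a Tet-On construct carried wild-type MYC (WT) or the mutant called 3A or 7A in the labels. MYC was induced with doxycycline (Dox, 1 µg/ml, 24 h) or left uninduced (PBS, 24 h), and 10% fixed mouse NIH3T3 cells were mixed in. The labels describe 18 libraries, of which 12 are MAX immunoprecipitations (6 groups of 2 biological replicates) and 6 are inputs, 1 per group. The antibody field and the titles name MAX, while the protocol text speaks of an anti-FLAG antibody. Whether each line is 1 clone was not stated there.

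MAX is a small helix-loop-helix leucine zipper protein that pairs with MYC, with itself, or with repressors such as the MXD proteins and MGA. The pairs bind the E-box CACGTG and related letters, mostly at promoters, where MYC and MAX together are known for driving genes of growth. MAX also binds without MYC, so a MAX peak does not by itself say which partner was present. The 9 genes have no common pathway. TMEM33 encodes a membrane protein of the endoplasmic reticulum, ARSJ an arylsulfatase and RAB3A a GTPase of synaptic vesicle release. DCUN1D5, UBAC1 and WWP1 encode proteins of the ubiquitin and NEDD8 systems, and ZNF691, BEND3 and TBX3 encode nuclear DNA-binding proteins.

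RefSeq (GRCh38.p14) promoter entries matched 7 of the 9 genes, all but WWP1 and TBX3. In the 300 bases around the start (250 before, 50 after), searched on both strands, CACGTG was found in 2 of these 7 genes, UBAC1 and BEND3. Over all 35097 promoter entries 7.25% held it, and of the 9683 genes with an entry and a peak in all 3 lists 12.9% did. The 250 bases before the start of UBAC1 (chr9:135961374-135961623, minus strand) and of BEND3 (chr6:107115516-107115765, minus strand) are shown since they hold the motif, in capitals. Those of TMEM33 (chr4:41935179-41935428, plus strand) are shown as a contrast, since both mutant summits lay in them and no CACGTG did. All are hg38, 5′ to 3′ on the strand of the gene.
UBAC1: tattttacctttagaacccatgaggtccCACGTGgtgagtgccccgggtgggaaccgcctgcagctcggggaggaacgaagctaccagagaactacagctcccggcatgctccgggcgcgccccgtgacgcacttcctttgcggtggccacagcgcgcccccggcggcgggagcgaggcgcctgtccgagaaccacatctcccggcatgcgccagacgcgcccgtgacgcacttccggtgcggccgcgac
BEND3: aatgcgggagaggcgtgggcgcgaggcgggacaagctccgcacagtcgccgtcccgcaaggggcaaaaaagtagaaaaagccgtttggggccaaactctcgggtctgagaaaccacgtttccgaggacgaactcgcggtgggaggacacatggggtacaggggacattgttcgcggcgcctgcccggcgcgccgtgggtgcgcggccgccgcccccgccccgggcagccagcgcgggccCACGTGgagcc
TMEM33: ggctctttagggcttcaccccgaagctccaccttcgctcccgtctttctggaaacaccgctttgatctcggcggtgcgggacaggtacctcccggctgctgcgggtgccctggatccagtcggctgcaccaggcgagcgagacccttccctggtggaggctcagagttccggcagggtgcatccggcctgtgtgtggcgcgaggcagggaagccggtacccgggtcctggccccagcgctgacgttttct
In UBAC1 the motif starts 222 bases before the gene start, and its centre lay 21 bp from the WT summit, 106 bp from the 3A summit and 25 bp from the 7A summit. In BEND3 it starts 11 bases before the outer start and its centre lay 26 bp from the WT summit, but 1146 and 1164 bp from the strongest 3A and 7A summits and outside those mutant peaks. The related CATGTG, present in 11.1% of all entries, was found in BEND3 (as CACATG, 68 bp from the WT summit) and in RAB3A. In RAB3A it starts 25 bases before the start, and its centre lay 61 bp from the 3A summit and 935 bp from the WT summit. CACGCG, in 11.4% of all entries, was in none of the 7 genes' windows. Letters of the form CANNTG other than CACGTG, which include CATGTG and were in 65.8% of all entries, were found at 3 places in RAB3A and at 1 place around each of the 2 listed starts of BEND3. A match is a description of letters, and most WT summits of these genes lay outside the windows searched.

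Each list is 1 set of peaks for 1 MYC form, on its own scale, with no replicate list and nothing that separates Dox from no Dox. No value below has a replicate check, and the lists carry no library depth. The WT list held 34617 peaks on chromosomes 1 to 22 and X, the 3A list 27291 and the 7A list 25157. The fold enrichment of a peak is the authors' own value, the linear ratio of immunoprecipitate to background at the summit, with a median of 10.7 for WT, 11.01 for 3A and 11.1 for 7A. To set lists of unlike length side by side, each peak was given its percentile among the fold enrichments of its own list, with the strongest peak at 100. A gene's leading peak is its strongest one with a summit within 2500 bp of an outer gene end.

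All 9 genes had a gene-end MAX peak in each mutant list, which the choice of genes required; of the 12722 protein-coding genes with such a peak in WT, 11794 had one in all 3 lists. The leading WT peaks lay between percentiles 93.6 and 97.8 of the WT list (median 95.9). The 3A peaks lay between 6.30 and 68.8 (median 32.5), and the 7A peaks between 2.54 and 84.7 (median 38.2). Over all 11794 genes the medians were 74.4 in WT, 69.7 in 3A and 66.6 in 7A. Within each of the 9 genes the WT percentile stood above both mutant percentiles, which the choice of genes fixed. The order of the mutants was not fixed, and it varied: 3A ranked above 7A at TMEM33, RAB3A and DCUN1D5, and 7A above 3A at the other 6 genes. This order depends on the measure. By the percentile of the immunoprecipitate coverage alone, described below, it was reversed at RAB3A, ARSJ, ZNF691 and TBX3. With the mutant peaks that hold the WT summit it was reversed at BEND3.

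**Figure D1:**
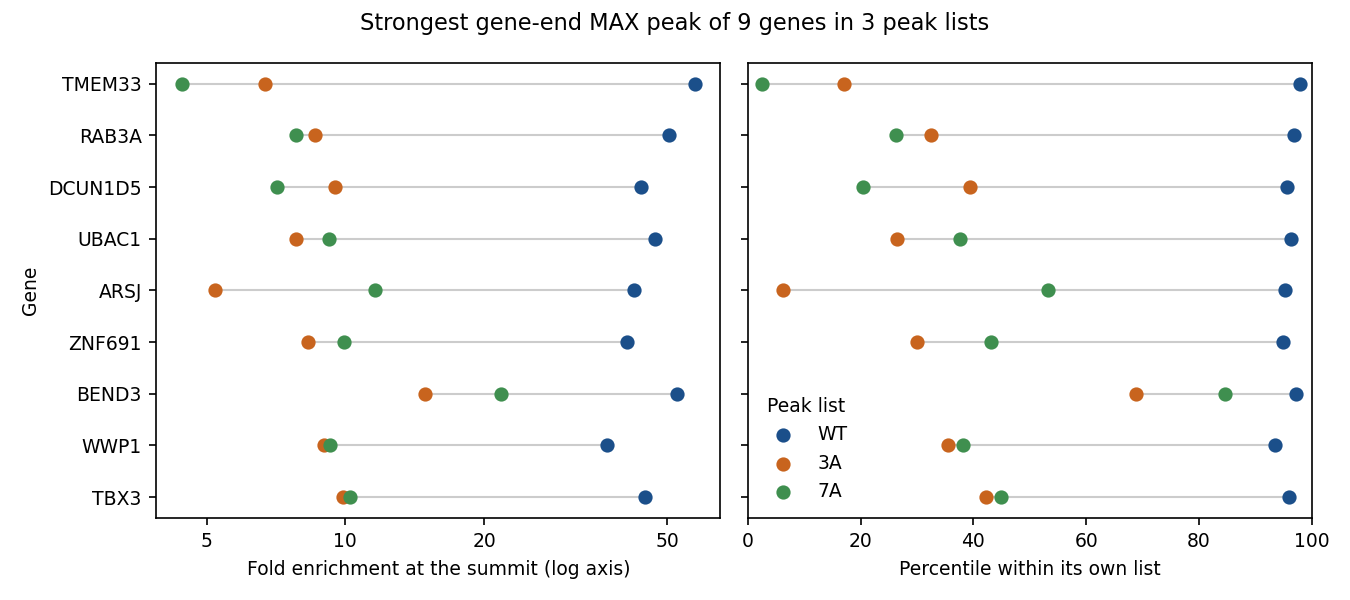
Leading gene-end MAX peak of each of the 9 genes in the WT (blue), 3A (orange) and 7A (green) lists, as fold enrichment on a log axis (left) and as percentile within its own list (right); 1 point is 1 peak, with no replicates. The WT points sit between percentiles 93.6 and 97.8, and the mutant points reach highest at BEND3, with 68.8 in 3A and 84.7 in 7A.

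Among the genes of membranes and enzymes of the secretory route, TMEM33, whose protein binds reticulons in the endoplasmic reticulum, had the widest separation. At this gene (chr4:41935137-41960803) the leading peak reached a fold enrichment of 57.3 with WT, 6.70 with 3A and 4.42 with 7A, at percentiles 97.8, 17.0 and 2.54. The 7A peak thus ranked near the bottom of its list and the WT peak near the top of its own. ARSJ, a sulfatase gene (chr4:113900284-113979647), reached 42.4 with WT, 5.22 with 3A and 11.6 with 7A, at percentiles 95.3, 6.30 and 53.2. Here the mutants were unlike each other, with 7A near the middle of its list and 3A near the bottom. ARSJ also held MAX peaks inside the gene, and at one of them 7A stood above WT, unlike at the gene end. A summit at position 113961154 had a fold enrichment of 8.66 in WT (percentile 37.5), the 7A summit 1 bp away had 10.96 (percentile 49.4), and no 3A peak was called there. A weaker peak with its summit at 113959264 (fold enrichment 5.76) was called in WT alone.

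RAB3A, whose GTPase sits on synaptic vesicles, lies at chr19:18196784-18204042. Its leading peaks reached 50.4 with WT, 8.59 with 3A and 7.80 with 7A, at percentiles 96.9, 32.5 and 26.2. The 7A value belongs to another peak, chr19:18204952-18205451, which shares no base with the leading WT peak (chr19:18202817-18204434). The 7A peak that does hold the WT summit, chr19:18202927-18204703, was lower still, with a fold enrichment of 5.72 at percentile 9.71. A 3A peak also stood at the outer position, chr19:18204912-18205412, with a fold enrichment of 5.92, and the WT list had none of its peaks there. At the far end of the gene a peak with a fold enrichment of 6.86 was called in WT alone.

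The genes of protein tagging had like ranks. DCUN1D5, a DCN1-like protein that helps attach NEDD8 to cullins (chr11:103050686-103092160), reached a fold enrichment of 43.7 with WT, 9.51 with 3A and 7.12 with 7A, at percentiles 95.7, 39.4 and 20.5. UBAC1, the adaptor subunit of the KPC ubiquitin ligase (chr9:135932969-135961373), had 47.0, 7.83 and 9.20, at percentiles 96.4, 26.4 and 37.5. WWP1, a ubiquitin ligase of the NEDD4-like HECT group (chr8:86342547-86468503), had 37.0, 8.99 and 9.29, at percentiles 93.6, 35.5 and 38.2. The WWP1 peak was the lowest of the 9 WT peaks, and its mutant values lay close together. In all 3 genes the mutant peaks fell in the lower part of their lists and the WT peaks at percentile 93.6 or above.

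Of the genes of nuclear proteins, ZNF691, a zinc-finger gene (chr1:42846613-42852477), reached 40.9 with WT, 8.29 with 3A and 9.96 with 7A, at percentiles 94.95, 30.01 and 43.1. TBX3, a T-box repressor of limb and breast development (chr12:114670255-114684175), had 44.7, 9.88 and 10.2, at percentiles 95.9, 42.2 and 44.8. All 4 of these mutant peaks ranked below the middle of their lists, that of ZNF691 in 3A lowest. BEND3, a BEN domain protein that binds CpG-rich promoters and represses transcription (chr6:107065182-107115515), stood apart: its leading peaks had 52.3 with WT, 14.9 with 3A and 21.8 with 7A, at percentiles 97.2, 68.8 and 84.7. The leading mutant peaks of BEND3 ranked above the middle of their lists, with WT ahead by 12.6 percentile points, but they are not at the place of the WT summit. With the mutant peaks that hold the WT summit the lead was 43.4 points, above the 42.1 points of ARSJ. A peak inside BEND3, with its WT summit at 107108391, was also highest in WT, with fold enrichments of 28.02, 8.80 and 16.6 at percentiles 88.5, 34.02 and 73.9. Only at ZNF691 did another protein-coding gene, ERMAP, have an end within 2500 bp of a leading summit, 1021 bp from that of WT. ERMAP encodes an erythroid membrane protein of the butyrophilin type. Ends of long noncoding RNA genes lay within 2500 bp at TMEM33, RAB3A, ARSJ, ZNF691 and WWP1. Such an end was 307 bp from the leading 7A summit of RAB3A, itself 1214 bp from RAB3A. At ZNF691 it was 402 bp from the WT summit, itself 601 bp from ZNF691. Other leading summits lay nearer an end of their own gene.

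Whether the lists compare the same summit at these genes depends on the gene. The leading summits of WT and mutant lay within 100 bp of each other at UBAC1, ARSJ and TBX3, that is at 3 of 9 genes in 3A and at the same 3 in 7A. The distances from WT to 3A and from WT to 7A were 85 and 4 bp at UBAC1, 19 and 2 bp at ARSJ, and 10 and 1 bp at TBX3. At the other 6 of 9 genes the WT summit was over 100 bp from the summits of both mutants, compared with 14.7% of all 11794 genes. Among the 1831 genes with a WT percentile of at least 93.6 the share was 7.65%. Neither set was chosen on a WT lead over the mutants, as the 9 genes were. Among other genes with a large lead the share was higher, as given below, so these shares are a description. These 6 genes were WWP1 (164 and 189 bp), TMEM33 (522 and 521 bp), DCUN1D5 (576 and 624 bp), ZNF691 (624 and 619 bp), RAB3A (995 and 2126 bp) and BEND3 (1171 and 1189 bp).

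The 2 mutant summits, in contrast, lay within 100 bp of each other at 8 of 9 genes, with RAB3A the exception at 1131 bp; over all genes the share was 85.6%. They were 1 bp apart at TMEM33, 5 bp at ZNF691, 9 bp at TBX3, 17 bp at ARSJ, 18 bp at BEND3, 25 bp at WWP1, 48 bp at DCUN1D5 and 81 bp at UBAC1. At 5 of 9 genes the mutants shared a summit and WT had another, a pattern found at 1446 of all genes (12.3%). Of the 127 other genes with a WT lead as large as in the 8 genes without BEND3, 48 (37.8%) had a WT summit over 100 bp from both mutant summits. The share was thus higher among genes with such a lead than among all genes; that difference was not tested. Where the leading summits differ, the fold enrichments set side by side belong to different positions.

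**Figure D2:**
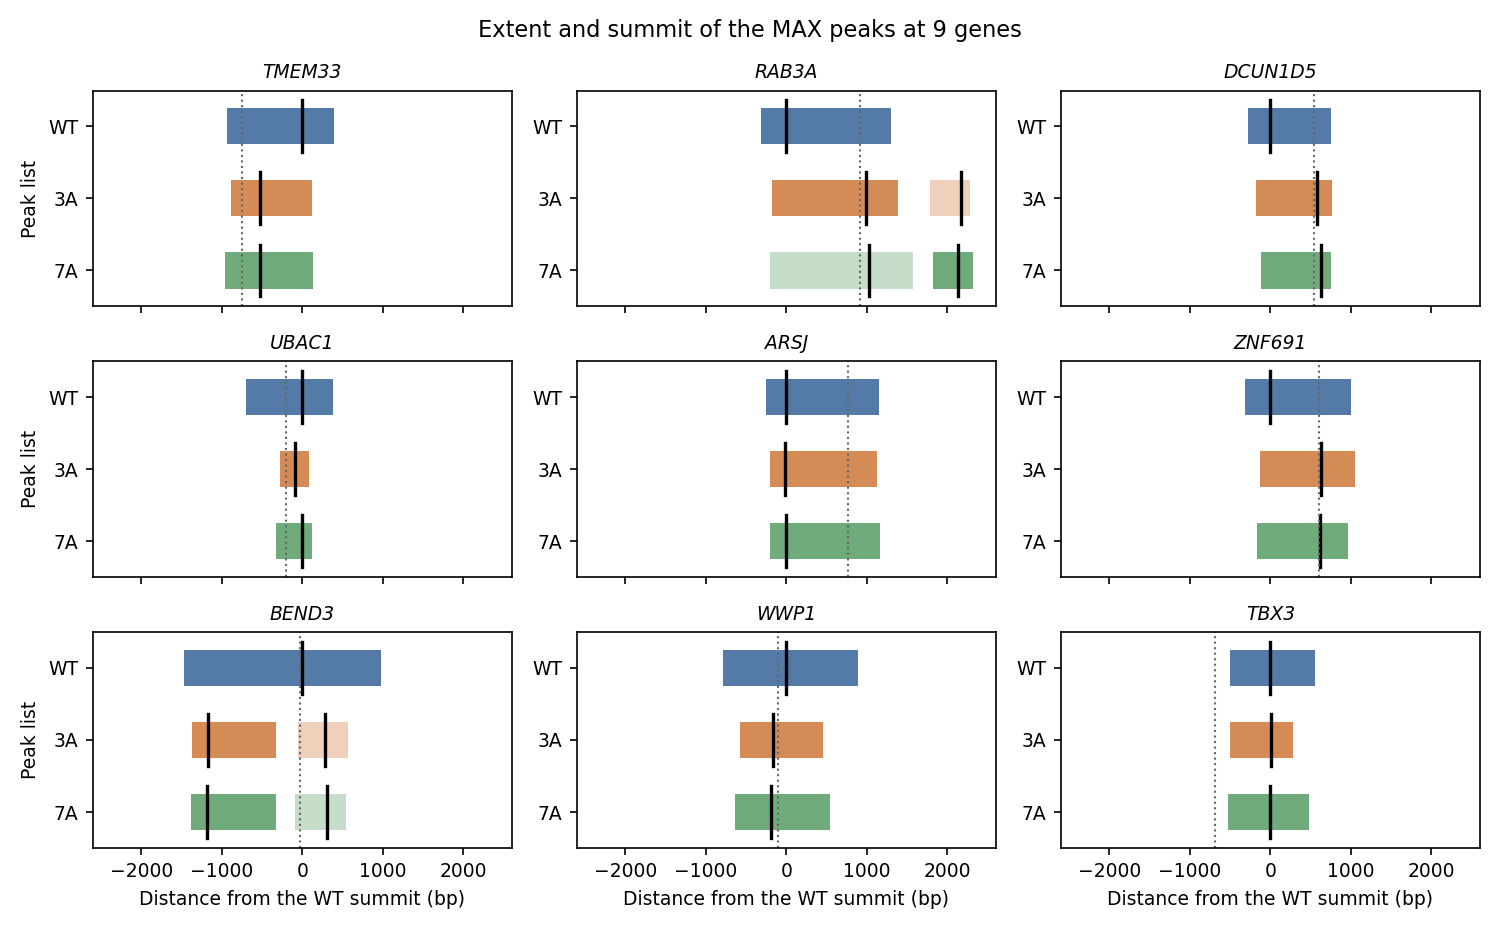
Peaks around the leading WT summit of each gene, with the distance from that summit in bp along the genome on the x axis; boxes are peak extents, solid for the leading peak and pale for others, black ticks are summits and dotted lines are outer gene ends. The summits coincide at UBAC1, ARSJ and TBX3, the mutant summits stand together but away from WT at TMEM33, DCUN1D5, ZNF691, BEND3 and WWP1, and at BEND3 1 WT box faces 2 boxes in each mutant list.

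The side of the WT summit on which the mutant summits lay, relative to the gene start, was not the same in all genes. At TMEM33 the WT summit lay 459 bp after the start used by the promoter entry and the mutant summits 63 and 62 bp before it. At DCUN1D5 the WT summit was 547 bp inside the gene, and those of 3A and 7A were 29 and 77 bp before the start. At RAB3A it was 912 bp inside, and those of the mutants were 83 and 1214 bp before the start. At these 3 genes the WT summit was the one further into the gene. At ZNF691 it was the reverse, with the WT summit 601 bp before the start and the mutant summits 23 and 18 bp after it, and BEND3 was like ZNF691, with WT 34 bp before the outer start and the mutants 1137 and 1155 bp after it. The BEND3 mutant summits stood 54 and 72 bp after its second listed start. At WWP1 the WT summit was 103 bp inside the gene and those of 3A and 7A were 61 and 86 bp outside it. At TBX3 all were outside, at 689, 699 and 690 bp from the gene end. Counting the 7 genes with a promoter entry, the leading summit fell in the 300-base window at 2 genes in WT, 5 in 3A and 4 in 7A; over all 9683 genes with an entry the shares were 47.5%, 52.4% and 52.8%. Exon and intron positions were not analysed here.

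The peaks themselves overlapped even where the summits did not. The leading WT summit lay inside a peak of both mutant lists at 9 of 9 genes, as it did at 97.1% of all genes. The leading WT peak shared bases with the leading peak of 3A at 9 genes and of 7A at 8, with RAB3A the exception. The peak that held the WT summit was the leading mutant peak except at RAB3A in 7A and at BEND3 in both mutants. In BEND3, 1 WT peak (chr6:107114078-107116528) faced 2 peaks in each mutant list. The 3A peaks were chr6:107114176-107115224, the leading one, and chr6:107115490-107116114, with a fold enrichment of 11.6 at percentile 53.8. The 7A peaks were chr6:107114167-107115225, the leading one, and chr6:107115457-107116086, with 8.52 at percentile 32.1. The outer mutant peaks hold the WT summit and the CACGTG printed above, and with them the lead of WT in BEND3 was 43.4 percentile points. Their own summits, to which the mutant values belong, lay 287 bp (3A) and 309 bp (7A) from the WT summit.

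Widths differed as well. The WT peak was wider than both mutant peaks at 9 of 9 genes, against 58.5% of all genes. WT widths ran from 1033 to 2451 bp (median 1324), 3A widths from 366 to 1565 bp (median 1038) and 7A widths from 446 to 1359 bp (median 1059). Over the leading peaks of all genes the medians were 1036, 883 and 946 bp. In bp the widths differed most at BEND3, with 2451 bp in WT, 1049 bp in 3A and 1059 bp in 7A, where the mutant lists hold 2 peaks each. At UBAC1 they were 1088, 366 and 446 bp. At RAB3A the 500 bp of the leading 7A peak belong to the separate outer peak, and the 7A peak that holds the WT summit was 1777 bp wide, more than the 1618 bp of WT. The widths were closer at ARSJ (1411, 1333 and 1359 bp) and DCUN1D5 (1033, 942 and 879 bp). The leading 3A peak covered 33.6% of the WT width at UBAC1 and 94.5% at ARSJ. At TMEM33 the peaks were 1324, 1010 and 1094 bp wide and began within a short distance of each other, chr4:41934954-41936277 in WT, chr4:41935004-41936013 in 3A and chr4:41934925-41936018 in 7A. Height and width of a peak are not independent measures, since a called peak reaches as far as its signal passes the threshold.

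A fold enrichment combines the immunoprecipitate, here called treatment, and the background. Both were solved by the peak caller's formulas from the 2 deposited values (fold enrichment, −log10 p), as coverage in fragments after its scaling. The fold enrichment also chose the genes, so the choice favoured a high WT treatment and a high mutant background. The coverages are thus parts of the selecting value, given as a description that adds no support. Treatment coverage at the leading summit at TMEM33 was 858 with WT, 106 with 3A and 127 with 7A. At ZNF691 it was 735, 148 and 195, at RAB3A 522, 53.8 and 94.0, and at UBAC1 328, 30.3 and 48.0. In all 9 genes the WT value was above both mutant values, with ratios of WT to 3A from 2.85 at BEND3 to 10.8 at UBAC1 (median 4.96) and of WT to 7A from 1.87 at BEND3 to 6.83 at UBAC1 (median 3.77). Each list has its own scale, and over all genes the median ratios were 1.82 and 1.32. The share of all genes with a WT value above both mutant values was not counted. Relative to all peaks of its list, the treatment coverage of UBAC1 was at percentile 83.2 in WT, 0.470 in 3A and 2.40 in 7A. Its mutant fold enrichments ranked higher, at 26.4 and 37.5, beside a background of 3.00 and 4.32 fragments.

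Background was higher in the mutant lists at most of these genes, read at the leading summit of each list, which is another position at 6 of them. It was above WT at 6 of 9 genes in 3A and at 7 of 9 in 7A, with ratios to WT of 0.5 to 1.55 and of 0.721 to 1.995. Over all genes the median ratio was 0.598 in 3A and 0.876 in 7A, and the share of genes with a mutant background above WT was not counted. The choice of low mutant fold enrichments favoured a higher mutant background, so these counts are a description. At TMEM33 the background was 14.0 with WT, 15.0 with 3A and 27.9 with 7A, so that the 12.9-fold lead of WT over 7A in fold enrichment went with a 6.76-fold lead in treatment coverage. At ARSJ, where the summits were at most 19 bp apart, it was 11 with WT, 17.0 with 3A and 8.90 with 7A, and treatment coverage was 507, 93.0 and 114. Between the mutants, the fold enrichments of 5.22 and 11.6 at ARSJ went with a background that was lower in 7A, each on its own list's scale. On those scales the treatment coverage was higher in 7A. Relative to all peaks of its list the treatment coverage of ARSJ was lower in 7A, at percentile 45.1 in 3A and 35.6 in 7A. By treatment coverage alone the median percentiles of the 9 genes were 91.9 in WT, 54.3 in 3A and 47.4 in 7A, a narrower separation than by fold enrichment. What the background coverage was taken from is not stated, and its part in the choice of these genes was not tested.

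**Figure D3:**
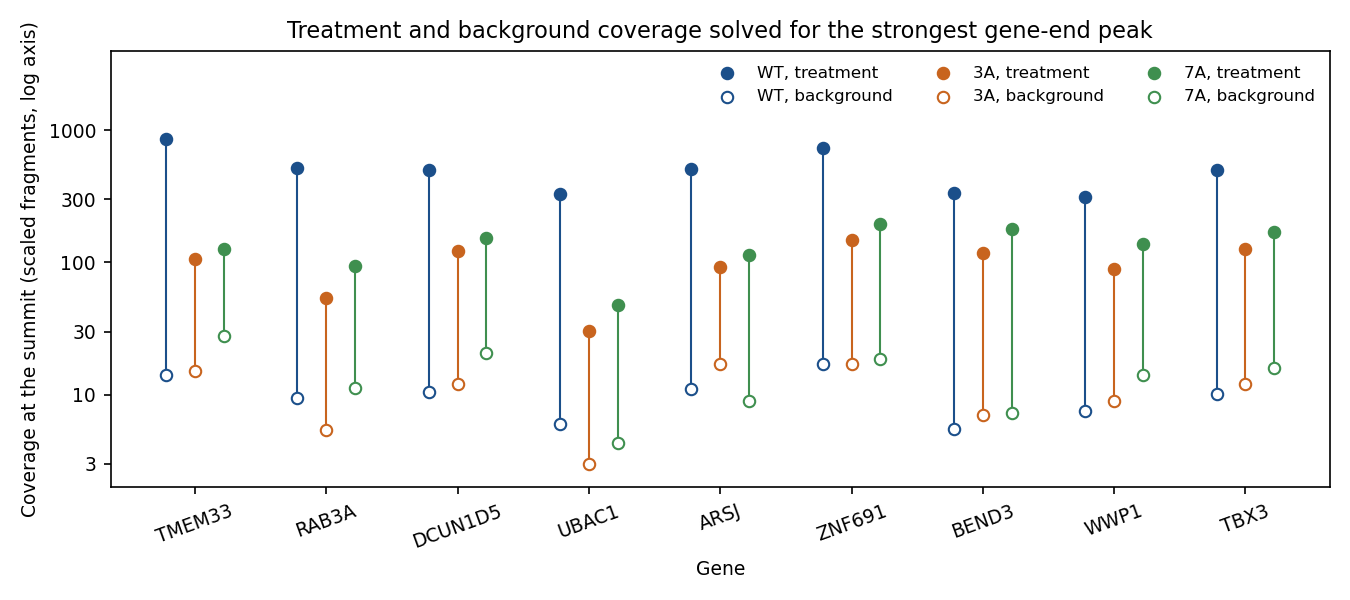
Treatment (filled) and background (open) coverage at the leading summit of each gene, in scaled fragments on a log axis, solved from the deposited values for WT (blue), 3A (orange) and 7A (green); each list has its own scale and 1 point per gene. Filled WT points stand above both mutants at every gene, and open points of the mutants stand above those of WT at most genes, up to 27.9 against 14.0 at TMEM33.

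How far these genes stand from the rest was described by the gap, the WT percentile minus the higher of the 2 mutant percentiles. It was 80.8 points at TMEM33, 64.4 at RAB3A, 58.9 at UBAC1, 56.2 at DCUN1D5, 55.4 at WWP1, 51.9 at ZNF691, 51.1 at TBX3, 42.1 at ARSJ and 12.6 at BEND3. The median was 55.4, against -1.14 over all genes. A gap of at least 12.6, that of BEND3, was found at 2017 of 11794 genes (17.1%), and both mutants ranked above WT by as much at 962 genes (8.16%). With the lists reduced to equal length this order was reversed, with 1226 genes for WT ahead (11.2%) and 2075 for the mirror (19.0%) at a gap of at least 11.5. A gap of at least 42.1, the smallest of the other 8, was found at 135 genes (1.14%), these 8 included, and the mirror of it at 36 genes (0.305%). The choice of genes used this contrast, so nothing is read from these shares about the 9 genes.

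**Figure D4:**
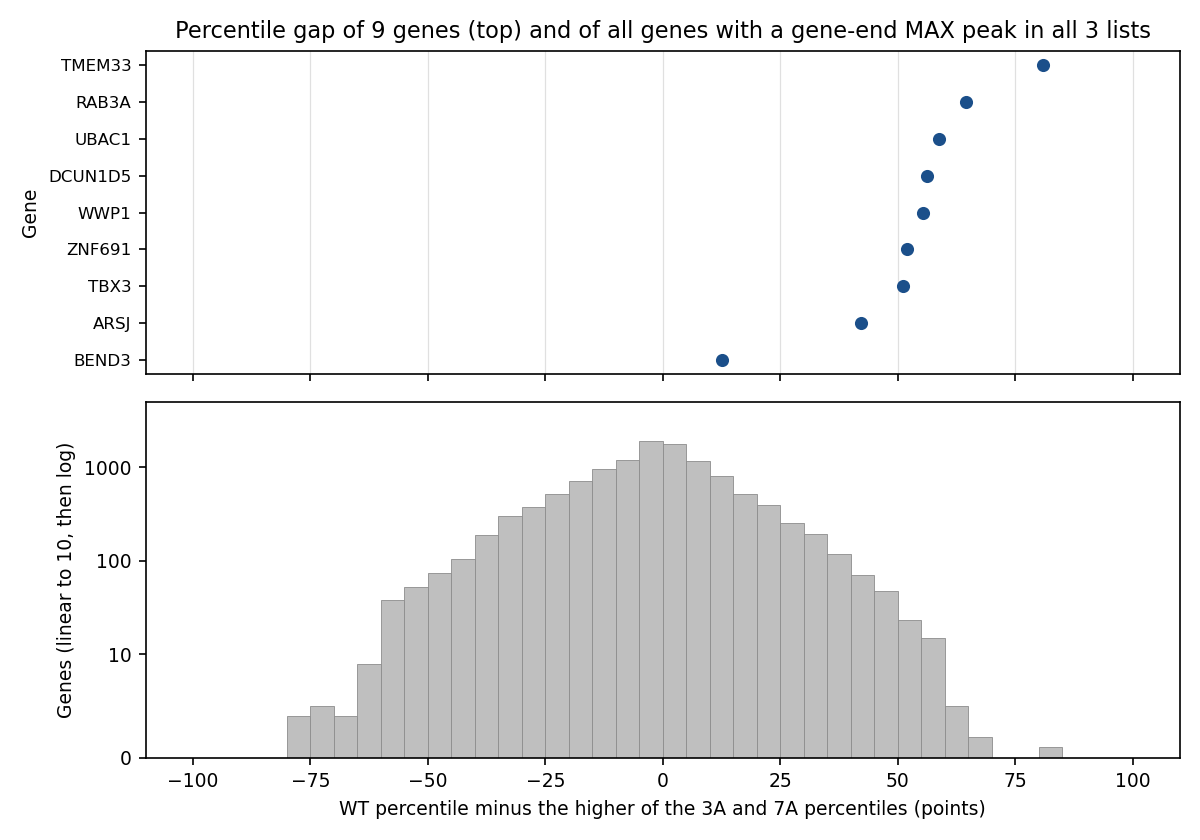
Gap of the 9 genes (top, 1 point per gene) and number of genes per 5-point bin of the gap among all 11794 genes with a leading peak in all 3 lists (bottom, y axis linear to 10 and then logarithmic). TMEM33 lies at the right end of the distribution with 80.8 points. BEND3 lies nearer the centre with 12.6 when the leading mutant peaks are used, a gap that 17.1% of the genes reach.

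The genes most like the 9, by distance of their 3 percentiles from the median percentiles of the 9, were EDNRA, BACE2, MRPL42, CENATAC and MTSS1. EDNRA, an endothelin receptor, was nearest at a distance of 3.84 points, with percentiles of 95.2, 28.7 and 38.4 for WT, 3A and 7A and fold enrichments of 42.0, 8.12 and 9.32. BACE2, a membrane protease, followed at 5.11 (fold enrichments 31.7, 8.41 and 9.23), and MRPL42, a mitochondrial ribosomal protein, at 5.52 (34.9, 9.06 and 9.68). CENATAC, a protein of the minor spliceosome, lay at 7.03 (62.1, 8.91 and 10.1), and MTSS1, which binds actin and membranes, at 8.29 (34.8, 9.40 and 8.71). Both patterns of summits occur among them. The WT and mutant summits were at most 58 bp apart at MRPL42 and MTSS1, whereas at EDNRA, BACE2 and CENATAC they were 1314 bp or more apart and the mutant summits at most 187 bp from each other. At CENATAC the distance was 20154 bp, so distant peaks are compared there. These 5 genes were picked by the same values and add no support.

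Families and partners of the 9 genes were examined for the same gap. Of 91 listed relatives, 59 had a gene-end peak in all 3 lists. A gap of at least 12.6 was found at 10 of the 59 (16.9%), close to the 17.1% of all genes, a gap of 42.1 at 0 (1.14% of all genes), and the mirror of the smaller gap at 3 (8.16% of all genes). Among the NEDD4-like ligases related to WWP1, 3 of 7 genes had the smaller gap: HECW1 (34.1 points), SMURF1 (22.5) and ITCH (12.9). Their WT percentiles were 54.6, 76.6 and 46.2, below those of the 9 genes. At SMURF1 the WT summit lay 635 and 631 bp from those of 3A and 7A. The other NEDD4-like genes measured were below that gap. Among sulfatases and their activators, relatives of ARSJ, 3 of 11 had it: ARSA (21.7), ARSK (20.1) and IDS (15.7), with WT percentiles of 52.9, 54.1 and 75.7. The strong peaks of this list were at STS, with 68.4 for WT, 22.1 for 3A and 30.5 for 7A as fold enrichments, at SUMF1 (46.5, 15.5 and 23.9), at GALNS (44.8, 62.9 and 45.4) and at SUMF2 (33.99, 22.8 and 11.9). GALNS, a lysosomal sulfatase, thus ranked higher in both mutant lists than in WT (percentiles 95.9, 99.1 and 97.3 in WT, 3A and 7A).

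In the RAB3 group 2 of 6 relatives had the smaller gap, RIMS2 (28.7), an active-zone scaffold, and RAB3IP (16.1), an exchange factor for RAB proteins. At RIMS2 the WT summit lay 2373 and 2429 bp from those of 3A and 7A, so its values belong to different positions. RAB3GAP2, a regulator of RAB3, had fold enrichments of 35.5, 31.0 and 19.9. Of the NEDD8 and cullin genes 1 of 15 had it, RNF7 (14.9), while UBA3, the catalytic subunit of the NEDD8 activating enzyme, was among the mirror genes. The cullin CUL4A stood high in every list (96.1, 54.2 and 67.7), as did CAND1 (34.4, 28.4 and 28.5), which exchanges cullin adaptors, and the ring protein RBX1 (30.9, 21.3 and 29.3). Of the 2 genes listed beside UBAC1 for the KPC ligase, RNF123 and CDKN1B, 1 had a peak in all lists and a gap below 12.6. Among BEN domain genes 1 of 3 had the smaller gap, NACC2 (17.1 points, with fold enrichments of 38.9, 17.6 and 14.2), and BEND6 had 56.9, 32.7 and 26.1. None of 6 T-box genes had it. MGA, the T-box protein that itself pairs with MAX, had 53.0, 75.2 and 60.9, TBX10 had 41.0, 24.4 and 31.4, and TBX15 was a mirror gene. None of the 10 genes that shape the endoplasmic reticulum had it either. Of these ATL3 had fold enrichments of 126.9, 182.6 and 144.9, ATL2 62.0, 19.8 and 26.5, and ARL6IP1 45.2, 46.8 and 27.6, and RTN1 was a mirror gene.

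The surroundings of the 9 genes were described by the leading peaks of other genes nearby. Within 500000 bp of their leading summits lay 49 other leading peaks of protein-coding genes, and 0 of these had a gap of at least 42.1, beside 1.14% of all genes, a share too small to tell 49 peaks from the rest. The median gap of the neighbours ran from -27.0 points around WWP1 to 5.90 around BEND3. TMEM33 had 2 such neighbours (median -15.5), DCUN1D5 1 (-6.27), ARSJ 1 (-13.6) and TBX3 0. In the denser regions RAB3A had 21 (median 1.37, highest 22.7), UBAC1 12 (median 0.784, highest 23.5) and ZNF691 8 (median -2.20, highest 10.3). The highest of these neighbours' gaps, around RAB3A and UBAC1, were above the 12.6 points of BEND3.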

How the data were processed

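The data are 3 MAX peak lists of U2OS cells, 1 per MYC form, which the authors deposited in the narrowPeak layout. Each peak's deposited fold enrichment is a linear ratio at the summit, and the −log10 p and −log10 q beside it were deposited by the authors as well. Per the submitters' processing notes, MACS2, Bowtie2, cutadapt, Picard and SAMtools were used with hg38, hg19 and mm10; versions and roles are not in them. Positions were read as hg38 and are printed counting from 1. Whether replicates or Dox states were pooled, what served as control and whether mouse reads were used for scaling are not given in the sources used here.

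The members, gene lists and measures were chosen with earlier results of these data known. Summits (start plus summit offset) were matched to the outer ends of protein-coding genes (RefSeq, GRCh38.p14). Named are the 9 genes, protein-coding neighbours within 2500 bp of a leading summit, the 5 genes nearest in Euclidean distance of the 3 percentiles, and up to 4 members of each family list with a peak in all lists and a WT percentile over 90; relatives with a gap of at least that of BEND3, and mirror genes, were named after their values were seen. The lists are RAB3 family and regulators, DCN1-like proteins with cullins and NEDD8 pathway, KPC complex with CDKN1B, and sulfatases. Further lists are BEN domain genes, NEDD4-like ligases, T-box genes and endoplasmic reticulum shaping genes.

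Coverage was solved with (treatment + 1)/(background + 1) for the fold enrichment and a Poisson tail for −log10 p. Values came out for 99.5% (WT), 99.5% (3A) and 94.8% (7A) of peaks, and the solver was checked on simulated summits. A fragment counted 0.696 in WT, 0.689 in 3A and 1 in 7A, as inferred from steps in the values. Columns of other samples numbered 0. Alternatives were other windows (1000 and 5000 bp), a −log10 q of at least 10, lists of equal length (25157 peaks by −log10 q), other rankings, summit distances (50 and 250 bp), an overlap of 50%, and other choices of the mutant peak. No test was made: each group is 1 list. Scripts ran under Python 3.11.15 with SciPy 1.17.1, NumPy 2.4.6, pandas 2.3.3 and, for figures, matplotlib 3.10.9.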

Additional observations from a re-analysis of the deposited data

How the results depend on the processing

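No paired analysis was possible because each MYC form has 1 list with no replicate columns, and for the same reason no replicate could be left out. The gap stayed above 0 for each of the 9 genes under each setting that gave it a value. The genes were chosen on this contrast and the settings rank the same 3 lists again. A gap above 0 was therefore favoured by the choice and adds no support. With lists of equal length UBAC1 dropped out, since its 3A peak was among those removed. Member counts with a peak, with overlap and with a shared summit stayed within 1.5 times the reported ones. Median percentiles in WT, 3A and 7A were 93.4, 40.0 and 44.8 by −log10 q, 91.9, 54.3 and 47.4 by treatment coverage, and 92.4, 22.3 and 26.7 among gene-end peaks. With lists of equal length they were 94.4 in WT and 28.5 in 3A, and in 7A the median was 37.5 with a window of 1000 bp and also with the mutant peak that contains the WT summit, an alternative chosen after seeing the data. The number of genes with at least the smallest gap of the members was 1213 by treatment coverage, 109 at 1000 bp, 1226 with equal lengths and 145 with the peak that contains the WT summit. The mirror counts were 48, 38, 2075 and 30 in that order, and 224 by −log10 q. The smallest gap, that of BEND3 or ARSJ, sets the threshold of these counts and took values of 42.1 at 1000 bp and with the peak that contains the WT summit, 20.9 by treatment coverage, 16.1 by −log10 q and 11.5 with equal lengths. Leaving out BEND3, also decided after seeing the data, gave 135 genes and 36 in the mirror. Across settings the gap of TMEM33 ran from 43.0 to 85.7 points, that of BEND3 from 11.5 to 43.4 and that of ZNF691 from 23.2 to 59.6. With equal lengths the mirror count exceeded the count of genes with WT ahead, the reverse of the order with the lists as deposited, at a nearly equal threshold; the cause was not tested.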
